A study of Mus musculus with 19 samples.

Results

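The genes of glucose uptake, glycolysis, lactate handling and glycogen were examined for 5-hydroxymethylcytosine (5-hmC) in mouse cardiomyocytes (CMCs). The set was a list of named genes and held 35 of the 21000 protein-coding genes with curated RefSeq transcripts. It covered 2 glucose transporters, 3 genes of the first steps (Hk1, Hk2, Gpi1), 3 phosphofructokinases, 9 genes from aldolase to enolase, 5 genes of pyruvate, lactate and monocarboxylate handling, 4 regulators of the PFKFB family, 2 pyruvate dehydrogenase kinases, 6 glycogen genes and the transcription factor gene Hif1a. CMCs of C57BL/6J mice were profiled at 4 points with 2 samples each: embryos at E14.5, newborn pups 1 or 2 days old, adults 2 months old, and adults 1 week after transverse aortic constriction (TAC), an operation that overloads the left ventricle with pressure. DNA was sheared, captured with an antibody against 5-hmC (hMeDIP) and sequenced, and each sample was deposited as its list of peaks over input DNA. The CMCs were enriched fractions, not pure cells. Embryonic and newborn cells came from digested ventricles and adult cells from perfused hearts, so that age and isolation cannot be told apart. TAC CMCs were set beside unoperated adult ones, and pressure load and surgery as such cannot be told apart either. Whether 1 replicate held 1 heart or several was not stated in the sources used here. The value throughout is coverage, the percent of a gene's span from its first start to its last end that lies under peaks of a sample. It records where enrichment was called and neither how strong it was nor how much RNA was made.

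5-hmC is made from 5-methylcytosine by the TET enzymes and is known as a mark of the bodies of expressed genes. The fetal heart lives largely on glucose and lactate, and after birth the heart turns to fatty acids, with an exchange of isoforms such as the basal glucose transporter GLUT1 (Slc2a1) for the insulin-responsive GLUT4 (Slc2a4) and hexokinase 1 for hexokinase 2. The hypertrophic heart is known to draw more on glucose again.

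To show what the called sequence looked like, the stretch under a peak in every one of the 8 samples is given for the 3 merged regions, of 337 on the 35 genes, that held such a stretch. Of the stretches on Slc2a1 and Hk1, 443 and 437 bp long, only the middle 300 bp are given. All coordinates are of GRCm38 (mm10), letters are of the plus strand, and each CpG, the dinucleotide that carries nearly all of this mark, is in capitals. The first lies in an intron of Slc2a1 at chr4:119123849-119124148, inside a merged region of 2116 bp. The second lies in an intron of Hk1 at chr10:62330433-62330732, and the third is the 47 bp that all 8 samples shared in an intron of Gyg, which encodes the glycogen primer glycogenin, at chr3:20137397-20137443.
Slc2a1 intron: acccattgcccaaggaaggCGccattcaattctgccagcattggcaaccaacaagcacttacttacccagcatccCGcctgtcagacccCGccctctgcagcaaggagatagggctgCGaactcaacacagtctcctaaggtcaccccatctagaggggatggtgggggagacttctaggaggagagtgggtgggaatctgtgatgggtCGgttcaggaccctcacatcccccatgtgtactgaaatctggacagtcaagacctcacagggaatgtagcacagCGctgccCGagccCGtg
Hk1 intron: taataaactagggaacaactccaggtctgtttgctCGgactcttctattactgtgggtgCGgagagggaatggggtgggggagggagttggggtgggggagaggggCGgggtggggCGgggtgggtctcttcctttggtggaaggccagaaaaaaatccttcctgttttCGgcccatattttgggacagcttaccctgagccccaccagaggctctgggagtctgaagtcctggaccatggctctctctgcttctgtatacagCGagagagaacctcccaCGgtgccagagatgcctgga
Gyg intron: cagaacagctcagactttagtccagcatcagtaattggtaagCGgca
These held 8, 7 and 1 CpG, or 2.67, 2.33 and 2.13 per 100 bp, where the whole genome held 0.826 and the spans of the 35 genes a median of 1.61.

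Next come 2 stretches shared by both replicates of 1 point, chosen after the values were seen. The Slc2a4 stretch at chr11:69945049-69945348 is the middle of the longest part of a region of that gene shared by both adult samples, 1739 bp long, and runs over an intron and parts of the coding exons at either side. The Slc16a1 stretch at chr3:104654988-104655287 is the middle of the corresponding part of that gene in both neonatal samples, 1659 bp long, in an intron of the gene for the lactate transporter MCT1.
Slc2a4 intron and exons: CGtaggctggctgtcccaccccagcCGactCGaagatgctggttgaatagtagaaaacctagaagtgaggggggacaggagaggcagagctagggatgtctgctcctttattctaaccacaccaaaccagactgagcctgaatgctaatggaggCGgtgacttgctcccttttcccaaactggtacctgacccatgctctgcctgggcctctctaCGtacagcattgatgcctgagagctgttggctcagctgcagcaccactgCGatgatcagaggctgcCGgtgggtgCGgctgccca
Slc16a1 intron: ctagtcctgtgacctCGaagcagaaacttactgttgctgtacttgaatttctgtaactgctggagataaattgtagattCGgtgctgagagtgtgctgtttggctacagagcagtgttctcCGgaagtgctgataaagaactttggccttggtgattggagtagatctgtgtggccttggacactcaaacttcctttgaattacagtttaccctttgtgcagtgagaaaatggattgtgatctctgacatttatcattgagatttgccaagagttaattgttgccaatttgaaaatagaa
These differed in CpG content, with 2.67 per 100 bp on Slc2a4 and 1 per 100 bp on Slc16a1.

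The last stretches are the 250 bases before a RefSeq start of 2 genes whose start windows lay under a peak in both replicates of a point. The Slc16a3 start, at chr11:120948817-120949066, belongs to the gene of the lactate exporter MCT4 and its window was called in 5 samples, both of E14.5, both neonatal and 1 adult. The Pfkm start, at chr15:98111810-98112059, is an internal one of the muscle phosphofructokinase gene, and its window was called in both samples of E14.5 and in 1 of each other point.
Slc16a3 promoter: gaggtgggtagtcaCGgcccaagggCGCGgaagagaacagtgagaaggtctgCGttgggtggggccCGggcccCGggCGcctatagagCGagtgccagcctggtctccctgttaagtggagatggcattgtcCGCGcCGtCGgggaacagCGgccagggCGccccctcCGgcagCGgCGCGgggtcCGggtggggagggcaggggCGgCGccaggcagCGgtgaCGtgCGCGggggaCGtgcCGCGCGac
Pfkm internal promoter: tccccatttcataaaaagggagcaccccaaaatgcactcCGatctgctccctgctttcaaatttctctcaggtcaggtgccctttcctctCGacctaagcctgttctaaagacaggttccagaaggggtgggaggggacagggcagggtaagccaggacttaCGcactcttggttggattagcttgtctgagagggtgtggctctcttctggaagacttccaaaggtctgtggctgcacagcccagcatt
The first is rich in CpG, with 29 sites in 250 bases, and the second holds 3.

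Before the genes, the samples. The lists held from 104215 to 153637 peaks with a median width of 501 bp in each sample, covering 65.1 to 119 Mb. TAC replicate 2 stood apart, with the least sequence covered and 1.08 CpG per 100 bp under its peaks, where the other 7 samples had 1.31 to 1.60. Its peaks shared on average 14.3% of their base pairs with each other list, where the other samples shared 28.9 to 31.1%. When its peaks were moved along the genome in steps of 100 bp, a step chosen after the data were seen, the share reached 18.6% at -500 bp and again at 600 bp, while each of the other 7 lists shared most as deposited. Whether its coordinates are displaced cannot be settled from the lists, and values that rest on the exact position of its peaks carry that doubt. E14.5 replicate 2 shared up to 63.8% of its base pairs with another list and neonatal replicate 2 up to 51.5%, the others at most 43.9%. By the sizes of the lists, these samples were closest to each other, not to their own replicates. This bears on each comparison of E14.5 with neonatal samples, and its cause was not tested. Mean coverage of 10 cardiomyocyte marker genes was 22.6 to 28.8% in E14.5 and neonatal samples and 9.74 to 14.3% in adult and TAC samples. Markers of other cells had means of 0.695 to 2.81% for 8 fibroblast genes, 4.78 to 11.9% for 7 endothelial genes and 3.10 to 9.19% for 4 blood genes, and their part in the results was not tested. Fewer cells with a mark and less mark per cell cannot be told apart in such lists.

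Averaged over the 35 genes, coverage was 15.2 and 8.46% at E14.5, 14.4 and 20.1% in newborns, 16.8 and 19.2% in adults and 17.2 and 7.17% after TAC. The point means were 11.8 ± 4.76%, 17.2 ± 4.03%, 18.02 ± 1.70% and 12.2 ± 7.06% in this order (SD, n = 2 per point). The replicates of E14.5 and of TAC were further apart than any of these means. TAC replicate 1 lay between the adult replicates. Each gene was also set beside the protein-coding genes of about the same length, 436 to 2578 per gene, whose mean coverage was 5.72 ± 0.343% at E14.5, 7.62 ± 0.992% in newborns, 8.22 ± 1.74% in adults and 5.56 ± 1.85% after TAC (SD, n = 2 per point), the last from 6.88 and 4.25%. The 35 genes had 2.05 ± 0.709, 2.24 ± 0.236, 2.22 ± 0.262 and 2.09 ± 0.572 times that coverage (SD, n = 2 at each point). The ratio lay between 1.54 and 2.55 in the 8 samples, above 1 in each of them and with no order among the points beyond the spread. By the means of both replicates, 18 of the 35 genes lay above the mean of genes of like length at all 4 points. Among the 18 were Slc2a1, Slc2a4, Hk1, Hk2, Pfkm, Ldha, Gys1 and Pygm. At none of the points did 5 genes, namely Gapdh, Pgam1, Pfkfb1, Gbe1 and Hif1a. The same count over all genes was not taken. Such means can hide samples without a peak. Of the 18 genes, Slc2a4 had 0% in neonatal replicate 1, Tpi1 in TAC replicate 2 and Eno3 in replicate 2 of adult and TAC. The spans of the 35 genes were also richer in CpG, with a median of 1.61 per 100 bp against 1.21 over all genes. The part of this in the ratio was not tested.

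**Figure D1:**
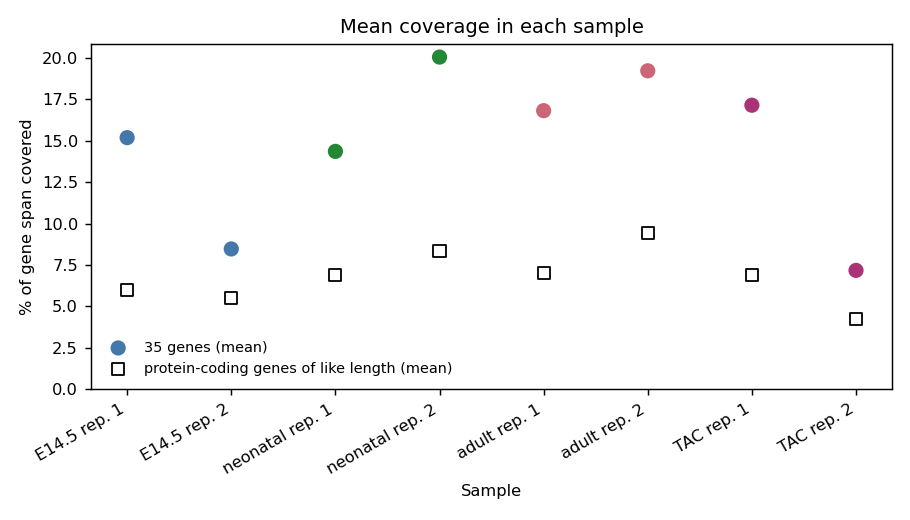
Mean percent of the gene span covered by 5-hmC peaks in each of the 8 samples (x axis). Filled points are means over the 35 genes and open squares means over protein-coding genes of like length, and the filled point lies above the square in each sample, by 1.54 to 2.55 times.

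Over the 4 points, limma's moderated F test with Benjamini-Hochberg adjustment over 16049 genes called 0 of the 34 genes that had a peak in at least 2 samples, where it called 1.15% of all genes tested. Only Gapdh missed that filter. At an unadjusted p under 0.05 it named Pfkl and Slc16a1, 2 of 34, beside a background of 11.6%. An exact permutation test, which ran through each of the 105 ways to form 4 pairs of samples, named Slc2a1, Pfkl and Slc16a1 before adjustment. These were 3 of 34 beside 7.76%. With adjustment it called 0 of 34 beside 0% of all genes. Its smallest possible p was 0.00952, which left almost no room for calls after adjustment over 16049 genes. For single transitions limma with adjustment also called 0 of 34 each time, beside 0.181% of all genes from E14.5 to neonatal, 0.903% from neonatal to adult, 0.393% from adult to TAC and 1.03% from E14.5 to adult. Before adjustment it named 1 (Pygb), 3 (Slc2a4, Pfkl, Slc16a1), 3 (Slc2a4, Hk2, Eno2) and 5 (Slc2a4, Pfkl, Pfkfb2, Gys1, Pygb), beside 6.22, 10.3, 7.38 and 16.3%. No gene of the set is therefore called changed, and what follows gives the levels and says where both replicates of one point lay on the same side of both of another. With 2 samples against 2, an exact two-sided permutation test cannot go below 0.333.

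**Figure D2:**
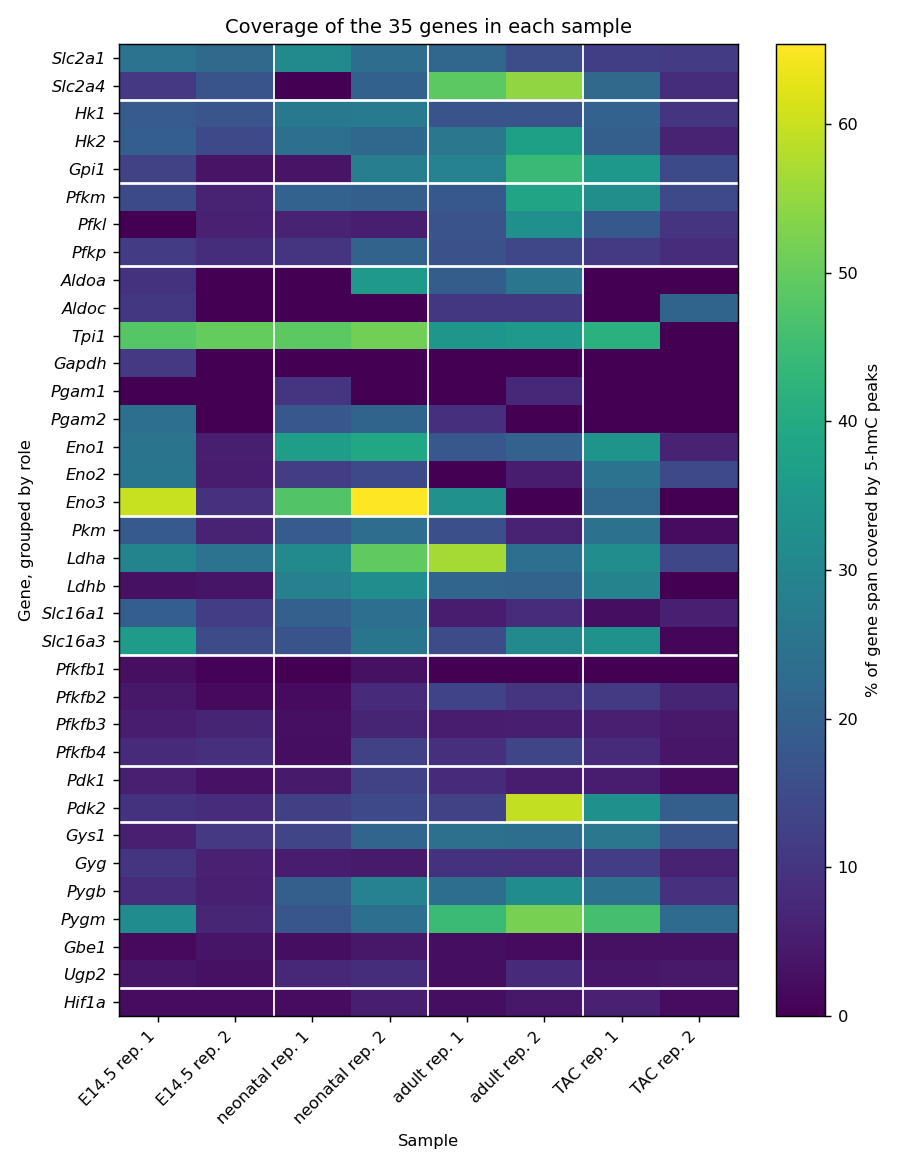
Percent of the gene span covered by 5-hmC peaks for the 35 genes (rows, grouped by role) in the 8 samples (columns), as colour from 0 to the highest value, 65.4% for Eno3 in neonatal replicate 2. TAC replicate 2 and E14.5 replicate 2 are the darkest columns, with means of 7.17 and 8.46%.

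The glucose transporters lay in opposite directions from the neonatal to the adult point, and neither passed the test. Coverage of Slc2a1 (chr4:119108745-119137330) was 24.9 and 22.6% at E14.5, 31.1 and 23.5% in newborns, 21.7 and 15.4% in adults and 12.1 and 11.3% after TAC. Both adult samples lay below both neonatal ones and both TAC samples below both adult ones, TAC replicate 1 included (limma adjusted p = 0.645 and 0.781). The mean was 27.3 ± 5.37% in newborns, 18.5 ± 4.46% in adults and 11.7 ± 0.566% after TAC (SD, n = 2 per point). Coverage of Slc2a4 (chr11:69942286-69948197) was 10.8 and 16.9% at E14.5, 0 and 20.3% in newborns, 48.9 and 54.5% in adults and 22.7 and 8.47% after TAC. The adult samples were higher than all others, and the difference of means from the neonatal point, 41.6 percentage points, was the widest of any transition among the 35 genes, with limma's adjusted p = 0.359 and an unadjusted p of 0.0139. From adult to TAC the Slc2a4 mean was 36.1 percentage points lower, with both TAC samples below both adult ones (limma adjusted p = 0.671). The peaks of Slc2a4 also lay at different places: at E14.5 and in neonatal replicate 2 they lay near the early exons, and in adult CMCs they reached across the middle and later exons. On Slc2a1 a run of intron positions recurred instead, 1 called in all 8 samples and 2 more in 7.

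Hexokinases, which trap glucose in the cell, lay apart in the same transition, again without a call. Coverage of Hk1 was 18.8 and 17.2% at E14.5, 26.6 and 27.3% in newborns, 17 and 16.8% in adults and 20.5 and 10.1% after TAC. Neonatal values exceeded those of E14.5 and of adult CMCs in both replicates. Coverage of Hk2 (chr6:82725025-82774454), the form that responds to insulin, was 19.7 and 14.49% at E14.5, 23.9 and 21.8% in newborns, 25.8 and 37.2% in adults and 19.8 and 6.47% after TAC. Its adult samples lay above both neonatal ones and its TAC samples below both adult ones, with a difference of means of 18.4 percentage points in the latter case (limma adjusted p = 0.642). Gpi1, which turns glucose 6-phosphate into fructose 6-phosphate, had 12.7 and 3.45% at E14.5, 3.45 and 27.9% in newborns, 28.9 and 44.3% in adults and 34.8 and 14.7% after TAC, and its adult samples lay above both neonatal ones by 21.0 percentage points on average (limma adjusted p = 0.640). TAC replicate 1 was within the adult range for Gpi1 and TAC replicate 2 below it. Hk1 held 5 and Hk2 3 of the 28 regions called in at least 7 samples.

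Phosphofructokinase commits sugar to glycolysis and is built from muscle, liver and platelet subunits. Coverage of the muscle gene Pfkm was 14.7 and 6.39% at E14.5, 20.6 and 19.9% in newborns, 18 and 38.3% in adults and 32.3 and 14.53% after TAC. Both neonatal samples lay above both of E14.5, and the adult replicates were too far apart to be set above the neonatal ones. Pfkl (chr10:77986947-78009807), the liver subunit, had 0 and 5.97% at E14.5, 6.57 and 5.39% in newborns, 16.6 and 32.8% in adults and 17.9 and 9.96% after TAC. Adult samples were higher than those of both earlier points, with a mean of 24.7 ± 11.4% (SD, n = 2) against 5.98 ± 0.835% (SD, n = 2) in neonatal CMCs. Its F test p in limma was 0.0468 before and 0.421 after adjustment. Pfkp, the platelet subunit, had 11.4 and 8.57% at E14.5, 10.1 and 20.7% in newborns, 16.1 and 13.9% in adults and 11.1 and 8.33% after TAC. Its TAC samples were both below both adult ones, by a few percentage points.

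In the trunk of glycolysis from aldolase to enolase, the mean over the 9 genes was 15.8 ± 11.3% at E14.5, 22.2 ± 4.20% in newborns, 12.7 ± 1.53% in adults and 9.15 ± 6.31% after TAC (SD, n = 2 per point). The TAC replicates had 13.6 and 4.69%. Coverage of Eno3 (chr11:70657176-70662513), the muscle enolase, was 60.0 and 9.39% at E14.5, 47.7 and 65.4% in newborns, 33.1 and 0% in adults and 22.2 and 0% after TAC. Adult samples lay below both neonatal ones by 40.0 percentage points on average (limma adjusted p = 0.628), and the replicates of E14.5, adult and TAC each lay far apart. In a single random draw of equal numbers of peaks from each list the difference was -7.45 percentage points and the replicates overlapped. Eno1, the ubiquitous enolase, had 25.1 and 5.41% at E14.5, 36.6 and 39% in newborns, 17.7 and 20.5% in adults and 33.8 and 6.46% after TAC. Neonatal samples were the highest of the 8, 22.5 percentage points above E14.5 (limma adjusted p = 0.910) and 18.7 above adult CMCs (limma adjusted p = 0.692). Eno2, the enolase best known from neurons, had 25.5 and 5.21% at E14.5, 12 and 14.48% in newborns, 0 and 5.21% in adults and 24.8 and 14.51% after TAC. It was low in adult CMCs and both TAC samples lay above both adult ones, with a difference of means of 17.1 percentage points (limma adjusted p = 0.630).

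Tpi1, which interconverts the triose phosphates, had 48.1 and 49.8% at E14.5, 49 and 51.5% in newborns, 34.5 and 35.3% in adults and 41.6 and 0% after TAC. This was the highest mean of the set, 38.7% over the 4 points, and the first 7 samples each had a peak in the same region, which reaches over coding exons. TAC replicate 2 had none. Adult samples lay 15.4 percentage points below the neonatal ones (limma adjusted p = 0.811). With the single draw of equal numbers of peaks, or with 5 kb added on each side, the adult mean was the higher one. Aldoa, the muscle aldolase, had 9.61 and 0% at E14.5, 0 and 35.1% in newborns, 19.3 and 25.7% in adults and 0 and 0% after TAC. TAC samples both lacked a peak that both adult samples had (limma adjusted p = 0.691), while the neonatal replicates disagreed. Aldoc, the brain aldolase, had 10.6 and 0% at E14.5, 0 and 0% in newborns, 10.6 and 10.6% in adults and 0 and 21.2% after TAC, from few peaks on a short gene.

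The phosphoglycerate mutase genes were sparse. Pgam2, the muscle form, had 23.8 and 0% at E14.5, 17.8 and 21.1% in newborns, 9.03 and 0% in adults and 0 and 0% after TAC, with both neonatal samples above both adult ones. Pgam1 had 0 and 0% at E14.5, 9.93 and 0% in newborns, 0 and 7.37% in adults and 0 and 0% after TAC, and Gapdh had 10.9 and 0% at E14.5, 0 and 0% in newborns, 0 and 0% in adults and 0 and 0% after TAC. A single peak decides such values on genes of 2.16 to 6.80 kb. Reads that map to several places were removed before the peaks were called, and what this does to genes with close processed copies elsewhere, such as Gapdh, was not tested.

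**Figure D3:**
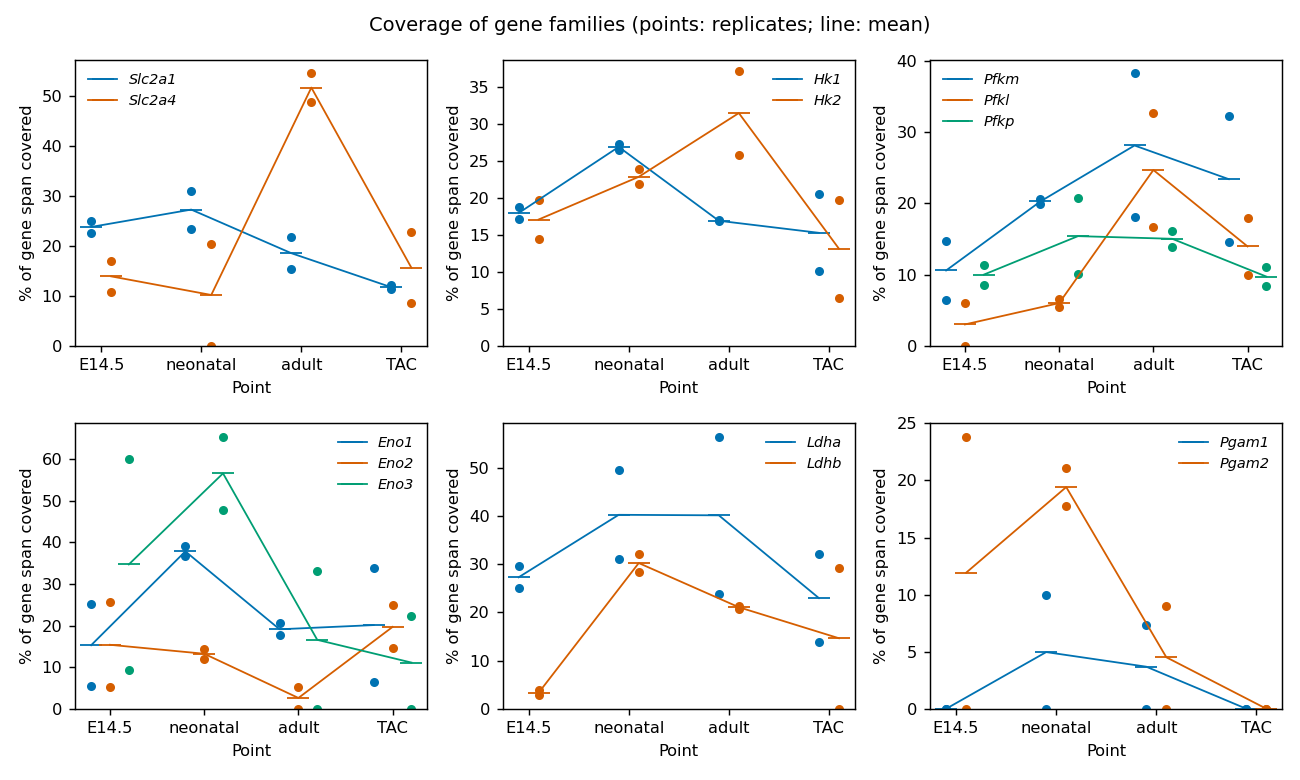
Percent of the gene span covered (y axis) at the 4 points (x axis) for 6 families of isozymes or transporters. Dots are the replicates and the lines join the means of 2 samples. Slc2a4 stands at 48.9 and 54.5% in the adult samples, where Slc2a1 is at 21.7 and 15.4%, and the enolase panel has its highest values in neonatal CMCs for Eno3 and Eno1.

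Pyruvate kinase and lactate dehydrogenase end the pathway. Pkm had 18.6 and 6.59% at E14.5, 19 and 23.5% in newborns, 15.9 and 6.46% in adults and 24.3 and 2.20% after TAC. Both neonatal samples were above both of E14.5 and both adult ones. Ldha, whose subunit favours lactate formation, had 29.6 and 25% at E14.5, 31 and 49.5% in newborns, 56.5 and 23.8% in adults and 32.1 and 13.8% after TAC, with neonatal above E14.5 values and adult replicates far apart. Ldhb (chr6:142490249-142507957), the subunit typical of the heart, had 2.83 and 3.82% at E14.5, 28.4 and 32% in newborns, 21.4 and 20.7% in adults and 29.3 and 0% after TAC. Its neonatal samples were both far above E14.5, by 26.9 percentage points (limma adjusted p = 0.833), and its adult samples stayed in between. TAC replicate 2 had no peak on Ldhb, and TAC replicate 1 was above both adult samples.

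Slc16a1 (chr3:104638664-104658462), the monocarboxylate transporter that takes up lactate, had 19.6 and 11.8% at E14.5, 20.0 and 23.9% in newborns, 5.06 and 8.22% in adults and 2.53 and 5.72% after TAC. It had the lowest F test p of the set, 0.0120 before and 0.268 after adjustment in limma. Both neonatal samples lay above both of E14.5 and all adult and TAC values lay below all earlier ones, with a mean of 21.9 ± 2.76% (SD, n = 2) in neonatal against 6.64 ± 2.24% (SD, n = 2) in adult CMCs. Slc16a3 had 35.9 and 14.8% at E14.5, 17.1 and 25.4% in newborns, 15.3 and 31.1% in adults and 33.6 and 0.770% after TAC, with no separation at any transition, although its start was among the most often called, with a peak within 1 kb in 7 of 8 samples.

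**Figure D4:**
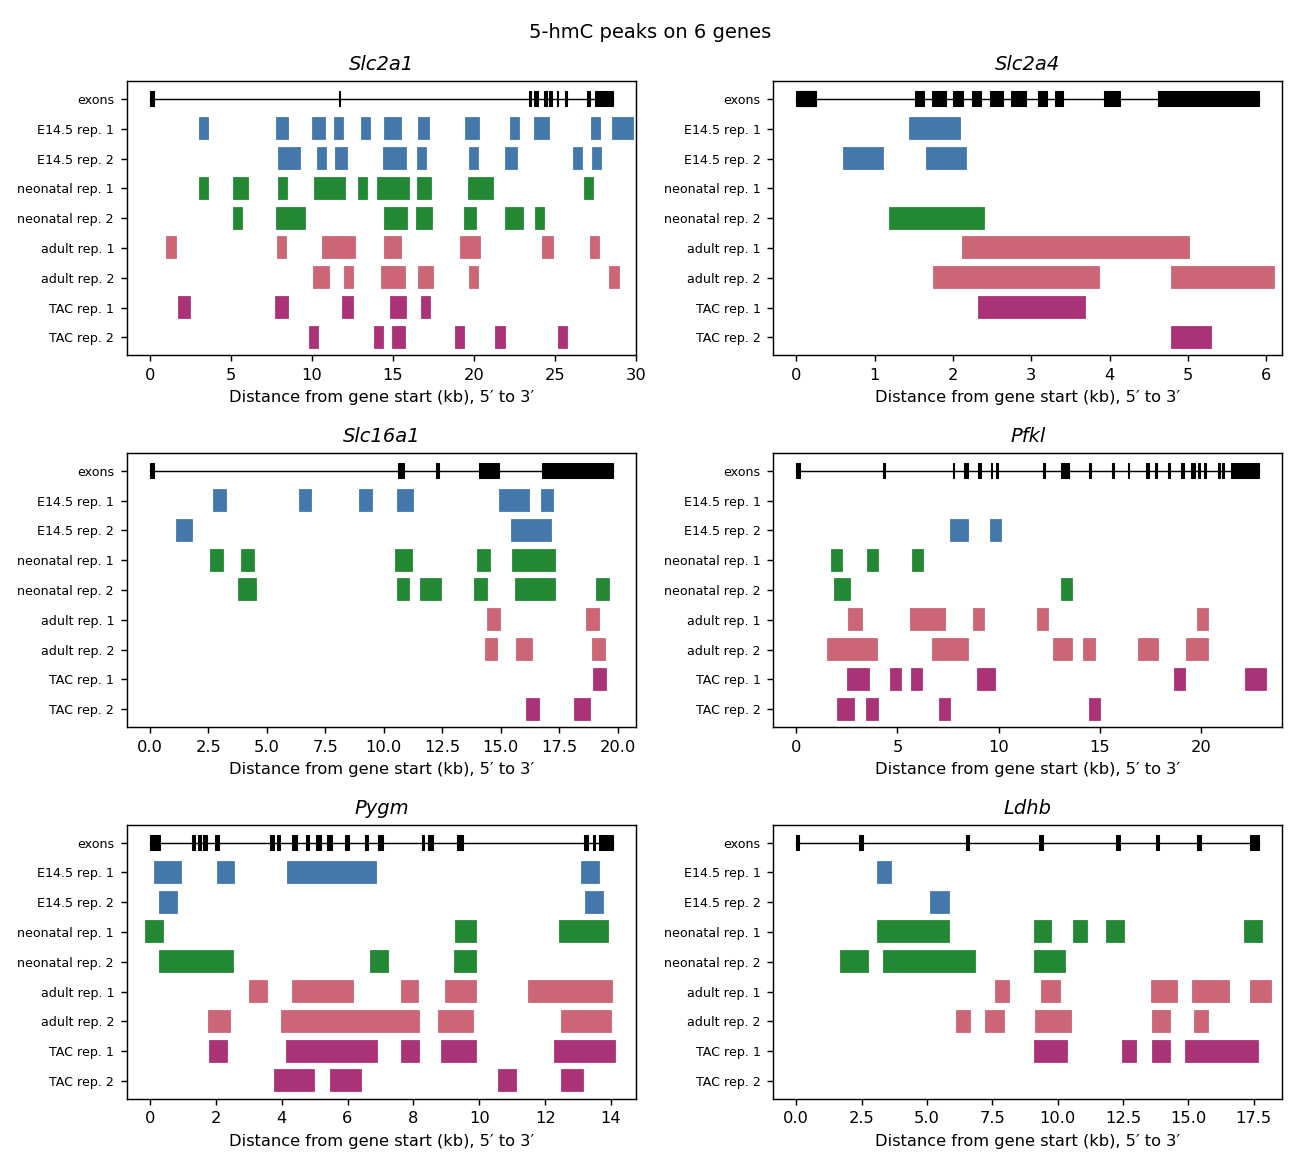
5-hmC peaks (coloured bars) of the 8 samples on 6 genes, drawn by distance in kb from the gene start, with exons in black on the top line of each panel. Slc2a4 has its widest bars in adult CMCs, Slc16a1 has bars only towards its 3′ end in the 4 adult and TAC samples, and Ldhb has none in TAC replicate 2.

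Among the regulators, the PFKFB enzymes, which set the level of fructose 2,6-bisphosphate, were covered little. Pfkfb2, the cardiac form, had 4.20 and 1.70% at E14.5, 1.95 and 7.75% in newborns, 13.2 and 10.1% in adults and 11.1 and 6.76% after TAC. Both adult samples exceeded both samples of each earlier point. An overlapping gene, Yod1, shares 11.8% of its span. Pfkfb3 ranged from 2.61 to 6.89% over the 8 samples and Pfkfb4 from 2.49 to 13.8%, the latter with TAC below adult values in both replicates. Pfkfb1, on the X chromosome, had peaks at E14.5 and in 1 neonatal sample and none in adult or TAC CMCs, with at most 2.91%. Of the pyruvate dehydrogenase kinases, Pdk1 ranged from 2.11 to 12.6%. Pdk2 had 9.45 and 8.40% at E14.5, 12.4 and 14.53% in newborns, 12.9 and 59.4% in adults and 32.9 and 19.8% after TAC. Adult replicate 2 was high for Pdk2, so that the adult mean was 36.1 ± 32.8% (SD, n = 2), and the neonatal samples were above those of E14.5.

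Glycogen genes had, as a group of 6, a mean of 8.12 ± 2.92% at E14.5, 13.1 ± 3.06% in newborns, 19.5 ± 2.36% in adults and 14.9 ± 6.21% after TAC (SD, n = 2 per point), with 19.3 and 10.5% in the TAC replicates. Pygm (chr19:6384408-6398464), the muscle glycogen phosphorylase, had 31.7 and 7.13% at E14.5, 17.6 and 23.8% in newborns, 44.6 and 52% in adults and 46.2 and 22.9% after TAC. Adult samples were 27.6 percentage points above the neonatal ones (limma adjusted p = 0.564) and TAC replicate 1 was as high as they were. Pygb, the brain form of the same enzyme, had 8.20 and 5.65% at E14.5, 19.8 and 29.1% in newborns, 23.6 and 31.9% in adults and 24.6 and 9.24% after TAC, with neonatal above E14.5 values by 17.5 percentage points (limma adjusted p = 0.723). Gys1, the muscle glycogen synthase, had 5.73 and 10.8% at E14.5, 13.7 and 21.3% in newborns, 24.2 and 23.7% in adults and 26 and 16.9% after TAC. Both neonatal samples lay above both of E14.5 and both adult ones above both neonatal ones, and neither transition passed the test.

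The other glycogen genes had lower coverage. Gyg had 9.72 and 5.91% at E14.5, 5.02 and 4.78% in newborns, 9.56 and 9.38% in adults and 12 and 6.44% after TAC, and was the one gene of the 35 whose neonatal samples were both below E14.5, by 2.92 percentage points (limma adjusted p = 0.913). Ugp2, which makes UDP-glucose, ranged from 2.37 to 8.51%, and Gbe1, the branching enzyme gene and with 255.8 kb the longest of the set, from 1.78 to 4.12%. Gbe1 was 1 of the 2 genes with both TAC above both adult samples, by 0.777 percentage points (limma adjusted p = 0.895). Hif1a, the hypoxia factor that drives many genes of the set, ranged from 2.17 to 5.90%, and 1 intron region close to its start was called in all 8 samples.

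Counted over the set, both neonatal samples lay above both of E14.5 for 12 genes, 34.3% of the 35 beside 25.9% of all genes tested, and below for 1 gene, 2.86% beside 6.6%. Shares of the set are here over all 35 genes, of which 34 were tested, so they are slightly low beside those of tested genes. From neonatal to adult CMCs 9 genes were higher, 25.7% beside 16.5%, and 10 lower, 28.6% beside 21.7%. The lower ones were Slc2a1, Hk1, Tpi1, Pgam2, all 3 enolases, Pkm, Ldhb and Slc16a1, and the higher ones Slc2a4, Hk2, Gpi1, Pfkl, Aldoc, Pfkfb2, Gys1, Gyg and Pygm. From adult to TAC, 2 genes were higher, 5.71% beside 6.06%, and 6 lower, 17.1% beside 24%, namely Slc2a1, Slc2a4, Hk2, Pfkp, Aldoa and Pfkfb4. From E14.5 to adult 14 were higher, 40% beside 29.1%, and 5 lower, 14.3% beside 18.1%. The transitions share their middle samples, and the counts are therefore not independent. TAC replicate 1 alone lay above both adult samples for 12 genes, 34.3% beside 20% of all genes tested, and below both for 8, 22.9% beside 31.4%. TAC replicate 2 alone lay above for 3, 8.57% beside 17.8%, and below for 24, 68.6% beside 44.4%, so that both counts moved with the replicate. Scaling moved the balance as well. Relative to the mean of each sample, 6 genes were higher and 3 lower from E14.5 to neonatal, and 6 higher and 4 lower from adult to TAC. In the single random draw of equal numbers of peaks, 14 were higher and 4 lower from neonatal to adult. Shares over all genes were not taken under these settings, so whether such moves are particular to the set was not tested.

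The median difference of the 35 genes was 4.40 percentage points from E14.5 to neonatal, with 26 higher and 9 lower. Over all 16049 genes tested the median was 0.814, with 9732 higher and 5171 lower. From neonatal to adult the median of the set was -0.107, with 16 higher and 18 lower, beside -0.185 with 7190 higher and 8284 lower. From adult to TAC it was -4.51, with 5 higher and 28 lower, beside -1.22 with 4815 higher and 10114 lower. The set had higher coverage to begin with, so differences in percentage points are not like for like. From adult to TAC its mean went from 18.02 to 12.2%, that of all genes tested from 9.96 to 6.735%. From E14.5 to neonatal these means went from 11.8 to 17.2% and from 6.99 to 9.28%. TAC replicate 1 alone gave the set a median of -1.09 against the adult mean, with 14 higher and 19 lower. Over all genes tested it gave -0.579, with 5488 higher and 9277 lower. TAC replicate 2 alone gave -7.23, with 3 higher and 30 lower, beside -2.16 with 4383 higher and 10530 lower.

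Merging the peaks of the 8 lists gave 337 regions on the 35 genes. A single sample held 105 of them and all 8 samples 13, with a further 15 called in 7. Regions called in 6 or more samples, 55 in number, had a median width of 2675 bp and 1.57 CpG per 100 bp, and those of a single sample 501 bp and 1.20 per 100 bp. Merged regions grow with the number of samples, which bears on the widths. The 28 regions called in at least 7 samples lay on 17 genes. Both replicates of a point shared 38.9% of its regions at E14.5, 43.1% in newborns, 40.5% in adults and 28.7% after TAC. Regions found in both replicates of a point and at no other point numbered 0 at E14.5, 7 in neonatal (on Slc2a1, Hk1, Slc16a1, Slc16a3, Gyg, Pygb and Ugp2), 9 in adult (on Hk1 with 2 of them, Hk2, Pfkl, Ldhb, Slc16a3, Pdk1, Gys1 and Ugp2) and 1 in TAC CMCs, on Gbe1. Regions were not merged over all genes, so these shares and counts have no background beside them. Those of TAC rest on the exact position of the peaks of replicate 2, which is in doubt.

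**Figure D5:**
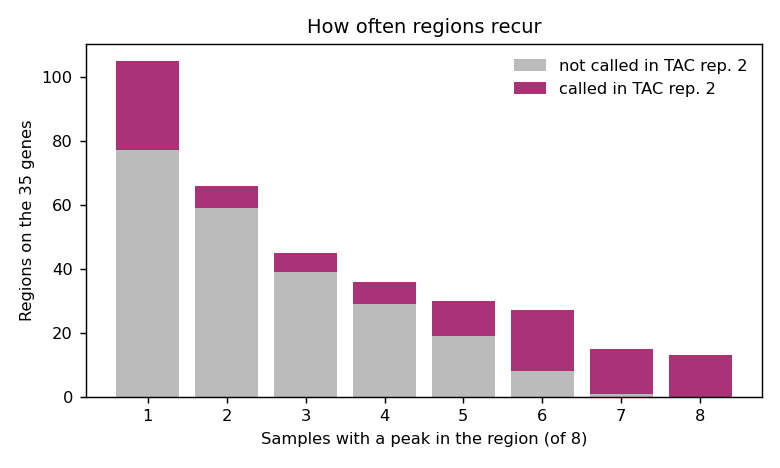
Number of merged regions on the 35 genes (y axis) by the number of samples, of 8, in which a peak was called there (x axis), with the regions called in TAC replicate 2 coloured. Single-sample regions are the most frequent class, 105, of which 28 belong to TAC replicate 2.

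Most peak centres on the set lay in introns, from 81.1 ± 1.35% (SD, n = 2) at E14.5 to 84.5 ± 6.95% (SD, n = 2) in TAC CMCs, where all genes had 86.9 to 89.3%. On coding exons lay 8.55 ± 1.57% at E14.5, 11.0 ± 1.60% in newborns, 10.5 ± 0.294% in adults and 7.47 ± 7.11% after TAC (SD, n = 2 per point), beside 5.43, 5.55, 7.44 and 5.36% over all genes. The TAC replicates had 12.5 and 2.44%. Within 1 kb of a start, 8 of the 35 genes had a peak in both replicates at E14.5. There were 9 in newborns, 7 in adults and 4 after TAC. These were 22.9, 25.7, 20 and 11.4% beside 11.1, 13.0, 11.3 and 7.37% of all genes. Any start of a gene counted, and the set had 54 RefSeq promoter windows on 34 genes where all genes had 20488 on 16853. The part of this, and of the higher coverage of the set, was not tested. Pfkm, which has several starts along its span, had a peak near a start in all 8 samples, and Slc16a3, Pfkfb4, Pdk2 and Gys1 in 7.

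Of 72 other genes of glucose metabolism, listed beside the set, 68 were tested. limma's F test called 2 of them, Txnip and Pdp1, beside the 1.15% of all genes, and limma called both from E14.5 to adult as well. Txnip, which encodes an inhibitor of glucose uptake, had 53.2 and 34.8% at E14.5, 10.5 and 10.7% in newborns, 0 and 0% in adults and 0 and 0% after TAC, with no peak listed in adult or TAC samples (limma adjusted p = 0.0265 over the 4 points). Pdp1, a phosphatase that activates pyruvate dehydrogenase, had 0 and 0% at E14.5, 6.06 and 7.72% in newborns, 6.06 and 7.67% in adults and 0 and 0% after TAC (limma adjusted p = 0.0390 over the 4 points). It was covered in neonatal and adult samples and in no sample of the other points. Both calls depended on the fit. With the replicate block 0 of all genes were called, and in the fit to genes of at least 5 kb alone 1 gene in all. The exact permutation test with adjustment also called 0 of all genes, but its smallest possible p of 0.00952 left almost no room for calls.

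Among those without a call, Pgls, an enzyme of the pentose phosphate pathway, had the widest difference of means, 56.4 percentage points from neonatal to adult CMCs, from 7.64 and 0% at E14.5, 0 and 0% in newborns, 27.5 and 85.4% in adults and 32.8 and 0% after TAC. The oxygen sensor genes Egln1 and Egln3 both had their highest values in neonatal CMCs. Egln1 had 37 and 19.9% at E14.5, 69.1 and 57.3% in newborns, 13.2 and 54.2% in adults and 47 and 19.9% after TAC, and Egln3 had 18 and 22.1% at E14.5, 45.4 and 42.9% in newborns, 13.8 and 12% in adults and 19.7 and 8.05% after TAC. Of the 72 genes, 21 lay higher in both replicates from E14.5 to neonatal, 29.2% beside 25.9% of all genes tested, and 3 lower, 4.17% beside 6.6%. From neonatal to adult 20 were higher, 27.8% beside 16.5%, and 11 lower, 15.3% beside 21.7%. From adult to TAC 5 were higher, 6.94% beside 6.06%, and 23 lower, 31.9% beside 24%. These shares are over all 72 genes, of which 68 were tested, so they too are slightly low beside those of tested genes.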

How the data were processed

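Each of the 8 hMeDIP samples was deposited by the authors as a HOMER peak list with a constant score of 1 per peak, called against input DNA. Per the labels and the study's methods, reads were aligned to mm10 with BWA 0.7.4-r385, and duplicate and multiply mapped reads were removed. The lists give no read depth per sample, and the constant score allows no stricter threshold by score. Of the 19 samples of the series, those without a list were not used here.

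Merged peaks were intersected with gene spans of curated RefSeq transcripts (GRCm38) in Python 3.11.15. limma 3.58.1 (R 4.3.3; trend, robust) was fitted to the arcsine square root of the covered fraction for the 16049 genes with a peak in at least 2 samples, with Benjamini-Hochberg adjustment over all of them. Code was tested on simulated data. Replicates were called biological in the study, but p-values cover only the spread between these samples. Sequences came from the GRCm38 genome and RefSeq promoter windows, which matched 34 of the 35 genes.

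The 35 genes, the 72 others, the markers and the tests were chosen with earlier results of these data known. Values in every sample are given for genes past the test, for the 3 largest differences per direction and transition without overlap of replicates, and for isoform families. Further genes and the Slc2a4 and Slc16a1 sequences were added after their values were seen, and so was Pdp1. Alternatives were another scale, normalization to the sample mean, equal numbers of peaks, other filters, spans and measures. A replicate block, the exact permutation test and leaving out each replicate were further ones. Equal numbers of peaks came from a single random draw, and no other draw was made. Deviations of equally numbered replicates had correlations from -0.0256 to 0.212 across genes, the highest between E14.5 and neonatal samples. Not every pair exceeded 0.1, so that the numbers were not taken to pair samples.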

Additional observations from a re-analysis of the deposited data

How the results depend on the processing

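Equal numbers of peaks were taken from each list in a single random draw. In it the Slc2a4 difference from neonatal to adult was 51.7 percentage points, as large as the adult mean, so the neonatal peaks had dropped out. Without the draw this difference was 41.6 percentage points, relative to the sample mean 35.1 and with 5 kb on each side 17.9. With that draw limma called 1 gene of the set, Slc2a4, over the 4 points (adjusted p = 0.0443) and from neonatal to adult (adjusted p = 0.0221). Of all 15715 genes tested in that draw, limma called 172 over the 4 points and 131 from neonatal to adult. Fits without 1 replicate left 1 sample at its point, so their calls cannot decide whether the result for the set held. All other alternatives gave 0 of the set. Over the 4 points, 84 of 16049 genes were called on the linear scale and 130 of 16049 relative to the sample mean. Without the filter on low values 167 of 21000 were called, and in the first-listed part of each list 103 of 13297. With E14.5, neonatal and adult samples alone 214 of 15448 were called, and by the exact permutation test 0 of 16049. With the replicate block 0 of the set and 0 of all genes were called, and with genes of at least 5 kb alone 1 gene in all.

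Counts of genes without overlap of replicates also moved. From E14.5 to neonatal the 12 higher became 6 relative to the sample mean and 6 by peak centres per 10 kb, and the 1 lower became 3 relative to the sample mean, 3 with equal numbers of peaks, 2 by centres and 0 in the first-listed 50% of each list. From neonatal to adult the 9 higher became 14 with equal numbers of peaks and 5 by centres, and the 10 lower became 4 and 3. The split of higher against lower thus turned in the single draw of equal numbers of peaks. None of these counts has a share over all genes beside it, and whether the split of all genes moved likewise was not tested. From adult to TAC the 2 higher became 6 relative to the sample mean and 1 with 5 kb on each side, where the 6 lower became 10. From E14.5 to adult, centres gave 9 higher and 3 lower. Leaving out each replicate, chosen after seeing the data, gave 15 to 24 higher and 1 to 7 lower from E14.5 to neonatal, 9 to 17 and 11 to 18 from neonatal to adult, 2 to 12 and 8 to 24 from adult to TAC, and 7 to 13 lower from E14.5 to adult. A single sample is more easily outside a pair than 2 are, so these counts are larger by construction.

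Mean coverage in both replicates alone was 4.60% at E14.5, 9.69% in newborns, 8.10% in adults and 2.31% after TAC. Over all base pairs together it was 12.7% in newborns and 13.1% in adults. Equal numbers of peaks gave 9.97% at E14.5, 10.8% and a ratio of 1.99 to genes of like length in newborns, 16.4% in adults and 12.01% after TAC, and the first-listed 50% of each list 15.8% in adults. Leaving out each replicate, the means were 8.46 to 15.2%, 14.4 to 20.1%, 16.8 to 19.2% and 7.17 to 17.2%. Regions of a single point became 5, 14 and 2 at E14.5, in newborns and after TAC with an overlap of 50% of both peaks, and 3, 1 and 0 in newborns, adults and after TAC with peaks up to 1 kb apart. Tpi1 reversed from neonatal to adult, with 10.4 percentage points at equal numbers of peaks and 0.667 with 5 kb on each side. Of the 120 values for the 15 named differences, 114 counted as unchanged, 4 lost separation and 2 reversed. Values with a replicate left out were judged by direction alone. That direction could not turn, since the differences were picked for replicates without overlap. Peak centres were not among these settings. The causes were not tested.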
